A study of Drosophila melanogaster with 31 samples.

Results

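CG7443, CG31300, CG14346, CG12355, Phk-3 and CG4415 are 6 protein-coding genes of Drosophila melanogaster, of 9251 genes with a row in the expression table of whole ovaries. They were chosen by values from these same libraries: each was listed as raised in 2 or more of 3 comparisons of total mRNA, namely tst RNAi against adult wild type, pelo mutant against pelo heterozygote and hfp mutant against hfp heterozygote. Levels in those 3 comparisons are therefore given as a description, and tests were kept to groups that the choice did not use. The test of the tst mutant against young wild type took its spread from all 16 total mRNA libraries, including those of the choice. In the fit made here, CG7443 rose in 3 of the 3 comparisons, CG31300, CG14346 and Phk-3 in tst RNAi and hfp, and CG12355 in pelo and hfp. CG4415 passed the threshold in 0 of the 3, so the listing was not met for it, and its values are given with that exception.

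Adult and young wild-type ovaries both carried UAS-Dcr-2 in a w1118 background with the germline driver GAL4-nos.NGT, with no RNAi construct named. Young ovaries were dissected 0 to 3 hours after eclosion and those of every other group 1 to 3 days after it. The tst mutant was tstMB10212 over the deficiency Df(3R)Exel9013, and tst RNAi was expressed with UAS-Dcr2 under nosGAL4, a driver of germ cells, so the knockdown is labelled for the germ line alone. The pelo mutant was pelo1/pelo1 with pelo1/CyO as control, and the hfp mutant was hfp9/hfp9 with hfp9/TM2 as control, so both controls were heterozygous and carried a balancer. Each of these 8 groups had 2 libraries of poly(A) RNA. Polysome RNA and its matching total mRNA, called the input, came from 2 preparations each of control, tst RNAi and pelo mutant ovaries. The 2 control preparations differed in genotype: preparation 1 had UAS-Dcr-2 with nos-GAL4, and preparation 2 was pelo1/CyO. There was 1 input and 1 polysome library of nosGAL4>bam RNAi and 1 library of the bamΔ86 mutant. The labels do not say that replicates came from separate cultures, so p-values measure the spread between libraries, which may be technical.

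The mutated genes act on RNA. tst (twister) encodes the fly Ski2 helicase, which feeds transcripts to the cytoplasmic exosome, pelo encodes a factor that rescues stalled ribosomes, and hfp encodes a splicing factor. bam is required for germ cells to leave the stem cell state and differentiate, and ovaries without it fill with undifferentiated germ cells. Of the 6 genes, 3 belong to families with a described role. CG31300 lies in a cluster of ecdysteroid kinase-like genes, whose products resemble an insect enzyme that phosphorylates ecdysteroid hormones. Phk-3 (Pherokine-3) encodes a small secreted protein of the chemosensory protein family. CG4415 is named gNacalpha by RefSeq, the germline alpha subunit of the nascent polypeptide-associated complex, which binds ribosomes where new protein chains emerge. CG7443, CG14346 and CG12355 carry only a systematic name.

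On the dm6 assembly (Release 6), CG7443 occupies chromosome arm 3R from 8324316 to 8325036 and CG31300 the same arm from 25283620 to 25285224. CG14346 lies on 2L from 1367996 to 1369050 and CG4415 on 2L from 1037246 to 1038685, 329 kb apart. CG12355 lies on 3L from 15492964 to 15495549 and Phk-3 on 2R from 24970843 to 24973207. CG7443 overlaps Poxm, Phk-3 overlaps CG3776 and CG4415 overlaps IA-2, so reads of each pair may have been split between genes in libraries counted without strand. Poxm ranged from 0.136 to 12.9 TPM and IA-2 from 0 to 2.31 TPM over the libraries, while CG3776 ranged from 95.4 to 250 TPM, above Phk-3 in every library. CG3776 did not pass the test in tst RNAi inputs (log2 difference 0.27, SE 0.13, adjusted p = 0.111) or pelo mutant inputs (0.10, SE 0.13, adjusted p = 0.542).

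Levels are in TPM, which scale a gene's reads to its length and to the library's total, and read depth is unknown because the files give no counts. The number of genes at 1 TPM or above ranged from 7233 to 8670 over the libraries. Fewer cells of a type and less RNA per cell cannot be told apart in such whole-ovary values. In total mRNA the targeted genes were lower where the labels name them: tst was 6.77 and 11.7 TPM in tst RNAi against 35.3 and 39.6 TPM in wild-type adults, pelo was 10.8 and 44.6 TPM in the mutant against 45.1 and 90.5 TPM in the heterozygote, and hfp was 9.29 and 20.8 TPM against 25.8 and 48.1 TPM. In inputs tst was 18.0 and 14.4 TPM with tst RNAi against 32.4 and 30.3 TPM in controls, and pelo 33.1 and 34.4 TPM in the mutant against 137 and 76.9 TPM. In polysomes the separation was smaller, with tst at 12.4 and 7.12 TPM against 12.5 and 15.1 TPM, and pelo at 39.0 and 33.9 TPM against 54.8 and 40.0 TPM. All 7 ovary-defining markers (vas, osk, nos, bam, Yp1, Yp2 and Yp3) were detected in each group. In both wild types and both tst groups, replicate 1 has no strand label and replicate 2 is labelled as reverse-stranded.

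CG31300, the kinase-like gene, was near 0 in control ovaries. Its levels were 0.32 and 0.28 TPM in wild-type adults, 0.090 TPM and a listed 0 in young wild type, 0.071 and 0.11 TPM in pelo heterozygotes, and 0.41 and 0.80 TPM in hfp heterozygotes. In mutants it was 10.03 and 11.4 TPM in tst RNAi, 3.13 and 2.19 TPM in tst mutants, 4.70 and 3.30 TPM in the hfp mutant, and 0.85 and 1.32 TPM in the pelo mutant. Every mutant library was above every control library in total mRNA, with tst RNAi highest and the pelo mutant lowest of the mutants.

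Phk-3, the secreted chemosensory-family gene, had a low level in adult controls: 2.20 and 3.80 TPM in wild-type adults, 2.67 and 2.83 TPM in pelo heterozygotes, and 1.80 and 1.84 TPM in hfp heterozygotes. It was 25.3 and 19.6 TPM in tst RNAi, 20.2 and 18.2 TPM in tst mutants, 15.9 and 8.13 TPM in the pelo mutant, and 20.9 and 9.72 TPM in the hfp mutant. Young wild-type ovaries, at 11.6 and 13.3 TPM, lay within the range of the mutants. No mutant library overlapped an adult control.

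CG4415, the germline NAC alpha subunit, varied widely between libraries of one group. It was 0.28 and 0.30 TPM in wild-type adults, 0.85 and 2.11 TPM in young wild type, and 0.61 and 0.31 TPM in hfp heterozygotes. The pelo heterozygotes, at 5.42 and 2.49 TPM, were above those controls. The pelo mutant had 65.7 and 113 TPM and tst RNAi 39.9 and 9.54 TPM. The hfp mutant had 30.9 TPM in one library and 0.46 TPM in the other, the second within the range of its heterozygotes. The tst mutant, at 0.63 and 1.88 TPM, overlapped young wild type.

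CG7443 was the most abundant of the 6 in every group of 2 libraries. It was 60.3 and 52.5 TPM in wild-type adults, 64.8 and 33.9 TPM in pelo heterozygotes, and 54.8 and 44.8 TPM in hfp heterozygotes. It was 562 and 747 TPM in tst RNAi, 292 and 218 TPM in tst mutants, 257 and 292 TPM in the pelo mutant, and 286 and 193 TPM in the hfp mutant. Young wild-type ovaries had 748 and 760 TPM, level with the higher tst RNAi library and above the other mutant libraries.

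CG14346 was 0.16 and 0.35 TPM in wild-type adults, 0.35 and 0.53 TPM in young wild type, 1.09 and 0.87 TPM in pelo heterozygotes, and 0.96 and 0.34 TPM in hfp heterozygotes. It was 13.7 and 11.4 TPM in tst RNAi, 5.68 and 8.95 TPM in tst mutants, and 61.4 and 10.97 TPM in the hfp mutant. In the pelo mutant it was 2.03 and 1.499 TPM. The hfp mutant libraries stood far apart from each other, yet both were above every control.

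CG12355 had another order. Adult wild type had 3.49 and 3.24 TPM, tst RNAi 1.60 and 4.43 TPM, so those groups overlapped. It was 44.7 and 26.4 TPM in the pelo mutant against 1.35 and 1.92 TPM in its heterozygote, and 20.7 and 15.6 TPM in the hfp mutant against 4.03 and 1.61 TPM. The tst mutant had 14.4 and 12.2 TPM, and young wild type 25.1 and 21.9 TPM.

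**Figure D1:**
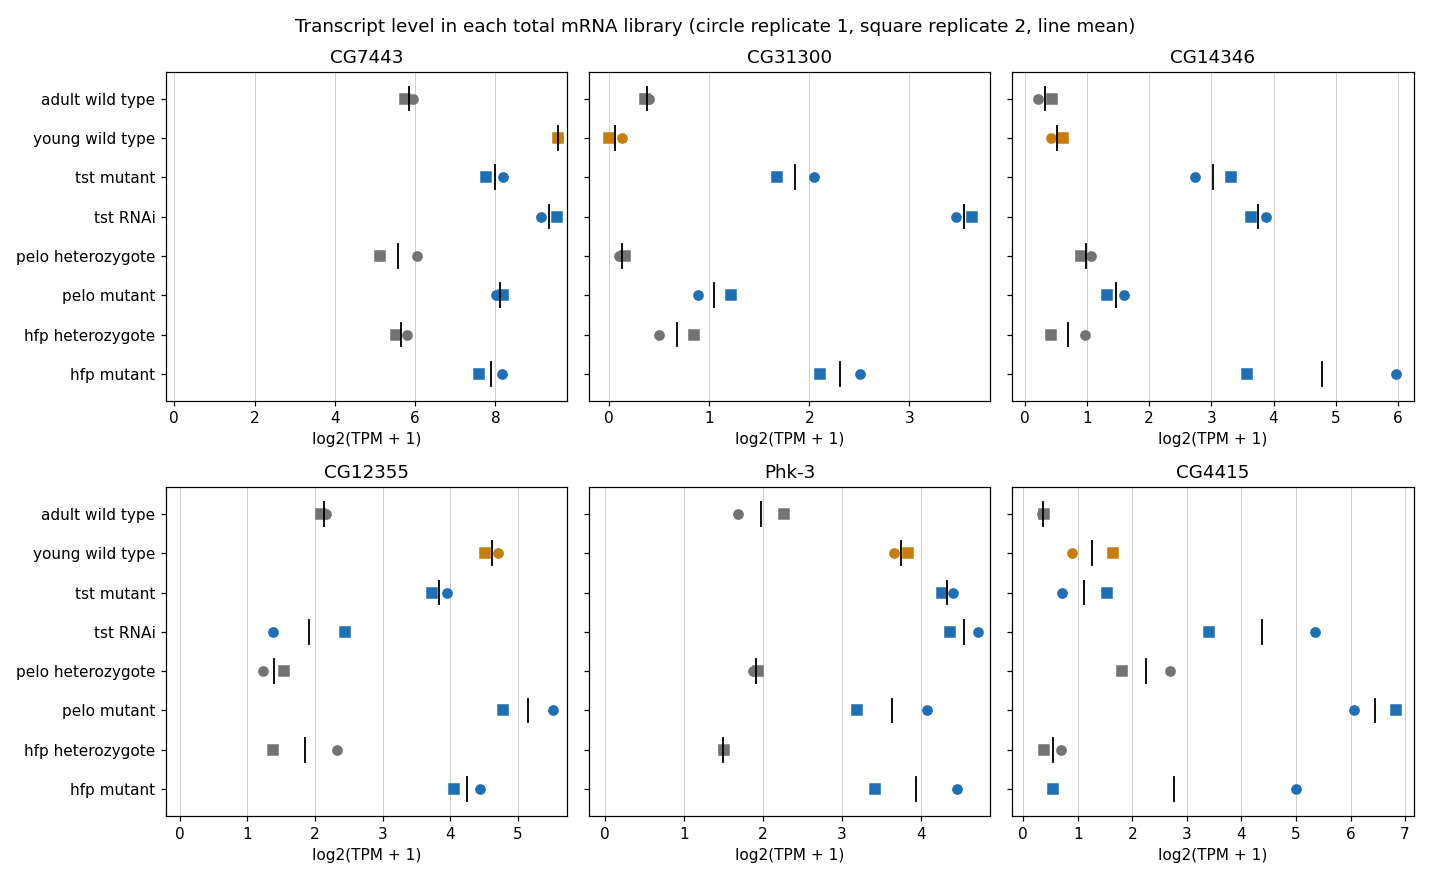
Level of each gene on the log2(TPM + 1) scale (horizontal axis) in the 16 total mRNA libraries by group, with circles for replicate 1, squares for replicate 2 and a line at the group mean; grey marks controls, orange young wild type and blue mutants. CG7443 is as high in young wild type (748 and 760 TPM) as in any mutant, and CG4415 has 30.9 and 0.46 TPM in the hfp mutant.

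The differences that served to choose the genes, on the log2(TPM + 1) scale, were as follows and carry no test. In tst RNAi against adult wild type, CG7443 was 3.50 higher (SE 0.33), CG31300 3.17 (SE 0.29), CG14346 3.43 (SE 0.59), Phk-3 2.57 (SE 0.45) and CG4415 4.01 (SE 1.09), while CG12355 differed by -0.22 (SE 0.47). In the pelo comparison CG7443 was 2.52 higher (SE 0.33) and CG12355 3.76 (SE 0.47). In the hfp comparison CG14346 was 4.08 higher (SE 0.59), Phk-3 2.44 (SE 0.45), CG12355 2.39 (SE 0.47) and CG7443 2.22 (SE 0.33). Just inside the threshold lay CG31300 in hfp (1.63, SE 0.29), and outside it Phk-3 in pelo (1.73, SE 0.45), CG31300 in pelo (0.93, SE 0.29) and CG4415 in pelo (4.20, SE 1.09) and hfp (2.23, SE 1.09). Of the 6 genes, 4 passed as higher in tst RNAi, where 0.936% of 8864 genes did, 2 in pelo, where 0.214% did, and 5 in hfp, where 0.632% did. Nothing is read from these counts, because the genes were selected on them; 9 of the 8864 genes passed in 2 or more comparisons and 3 in all of them.

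**Figure D2:**
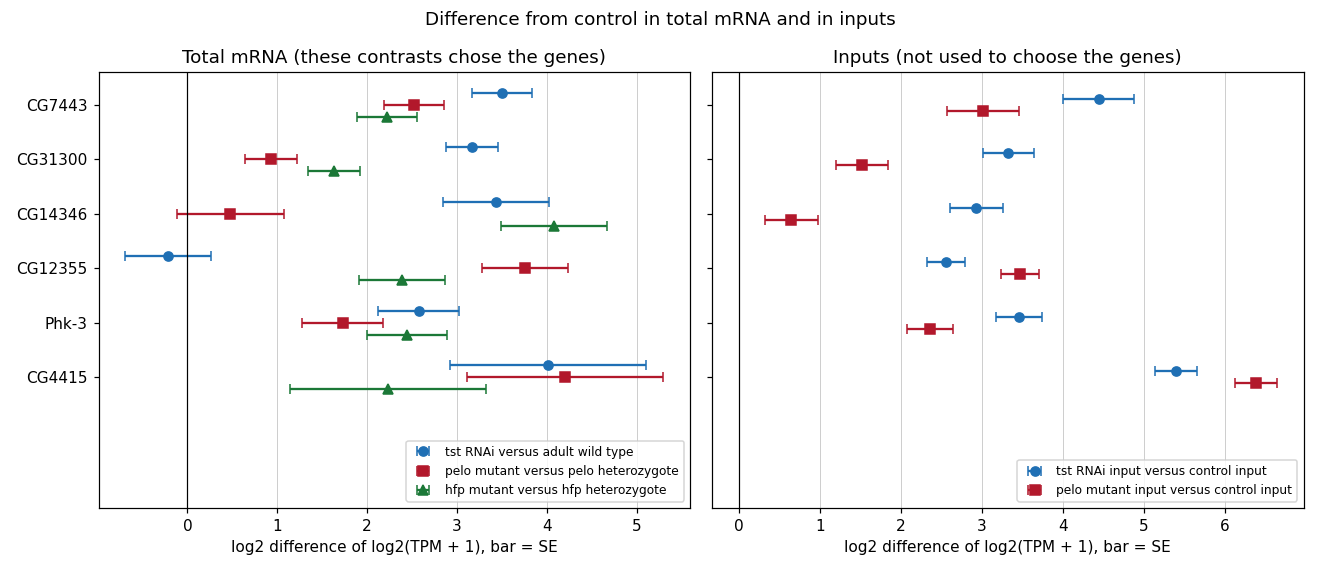
Difference from control on the log2(TPM + 1) scale for each gene, as the estimate from limma with its SE as a bar; the left panel holds the 3 total mRNA comparisons that chose the genes and the right panel the 2 input comparisons that did not. CG12355 is near 0 in tst RNAi total mRNA (-0.22) and 2.56 higher in tst RNAi inputs.

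In the inputs of the polysome preparations, which the choice did not use, all 6 genes rose in tst RNAi and 5 of the 6 rose in pelo mutants against the same control inputs. Across all 8572 genes tested, 21.7% rose in tst RNAi inputs and 14.4% in pelo mutant inputs, at an adjusted p under 0.05 by limma with Benjamini-Hochberg adjustment. The median log2 difference of the 6 genes was 3.39 in tst RNAi and 2.69 in pelo mutants, beside -0.16 and -0.14 over all genes. Both comparisons share the control inputs.

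CG4415 had the largest difference of the 6. It was 0.55 and 1.58 TPM in control inputs, 78.7 and 88.5 TPM in tst RNAi inputs, and 156 and 176 TPM in pelo mutant inputs. It was higher by 5.40 on the log2(TPM + 1) scale in tst RNAi (SE 0.26, adjusted p = 2.6e-05) and by 6.38 in pelo mutants (SE 0.26, adjusted p = 6.6e-05). Both inputs of each mutant were far above both controls. Inputs of the hfp mutant, whose total mRNA libraries were split, were not analysed here.

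CG7443 was 161 and 53.1 TPM in control inputs, 1845 and 2230 TPM in tst RNAi and 658 and 864 TPM in pelo mutants. It rose by 4.44 in tst RNAi (SE 0.44, adjusted p = 0.000195) and by 3.01 in pelo mutants (SE 0.44, adjusted p = 0.00386). The control inputs differed by 1.58, with the UAS-Dcr-2, nos-GAL4 preparation above the pelo1/CyO one. Without control input 1 the differences were 5.23 and 3.80, and without control input 2 they were 3.65 and 2.22. Against the control input whose label shares the driver or the pelo1 allele, the tst RNAi inputs were 3.51 and 3.79 higher than control input 1 and the pelo mutant inputs 3.61 and 3.997 higher than control input 2.

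Phk-3 was 4.58 and 2.64 TPM in control inputs, 41.7 and 56.5 TPM in tst RNAi and 19.7 and 25.0 TPM in pelo mutants. It rose by 3.46 in tst RNAi (SE 0.28, adjusted p = 9.7e-05) and by 2.36 in pelo mutants (SE 0.28, adjusted p = 0.00167). The groups did not overlap.

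CG31300 was 0.32 and 0.63 TPM in control inputs, 11.6 and 16.1 TPM in tst RNAi and 2.34 and 4.27 TPM in pelo mutants. It rose by 3.33 in tst RNAi (SE 0.32, adjusted p = 0.00017) and by 1.52 in pelo mutants (SE 0.32, adjusted p = 0.0144). The pelo call was lost without control input 1 (difference 1.36) and without pelo mutant input 2 (1.19), although the groups did not overlap.

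CG14346 was 0.81 and 0.49 TPM in control inputs, 12.4 and 10.7 TPM in tst RNAi and 2.41 and 0.93 TPM in pelo mutants. It rose by 2.93 in tst RNAi (SE 0.33, adjusted p = 0.000327). In pelo mutants the difference was 0.64, with a 95% interval from -0.11 to 1.40 (adjusted p = 0.157), so it was not resolved with 2 libraries a group.

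CG12355 was 1.90 and 2.37 TPM in control inputs, 16.7 and 18.3 TPM in tst RNAi and 29.2 and 38.7 TPM in pelo mutants. It rose by 2.56 in tst RNAi (SE 0.23, adjusted p = 0.000143) and by 3.47 in pelo mutants (SE 0.23, adjusted p = 0.000234). The tst RNAi inputs thus differed from tst RNAi total mRNA, where both libraries, at 1.60 and 4.43 TPM, were close to the controls. The 2 sets of tst RNAi ovaries also differed in marker levels. Summed late egg chamber markers were 60145 and 40356 TPM in total mRNA and 8214 and 7155 TPM in inputs. Early follicle cell markers summed to 62.2 and 46.7 TPM and to 207 and 175 TPM in the same order. The part of these cells in the CG12355 levels was not tested.

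**Figure D3:**
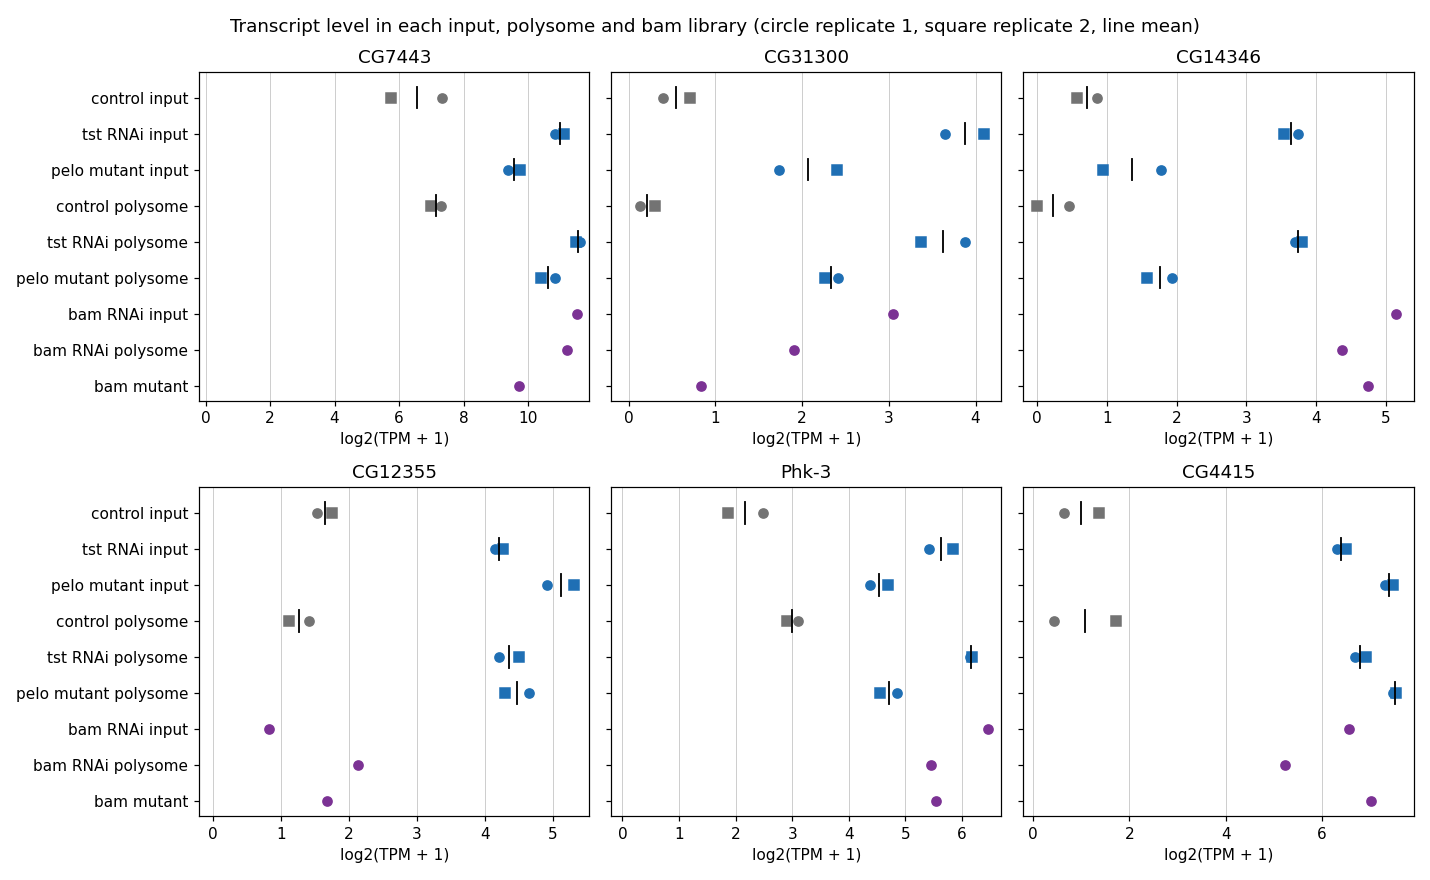
Level of each gene on the log2(TPM + 1) scale (horizontal axis) in input, polysome and bam libraries, with circles for replicate 1, squares for replicate 2 and a line at the mean; grey marks controls, blue mutants and purple the single bam libraries. CG4415 lies between 156 and 185 TPM in the 4 pelo mutant libraries and between 0.35 and 2.30 TPM in the 4 control libraries.

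Markers of other cells moved in the same inputs. All 13 muscle sheath markers rose in both mutants, and their summed level was 388 and 487 TPM in control inputs, 5732 and 5639 TPM in tst RNAi and 3452 and 4555 TPM in pelo mutants. Of 12 hemocyte and basement membrane markers, 11 rose in both. All 7 early follicle cell markers rose in tst RNAi and 5 in pelo mutants, while 11 of 11 late egg chamber markers fell in tst RNAi and 1 of 11 in pelo mutants. Of 8 maternal axis markers, 7 fell in tst RNAi and 6 in pelo mutants. Undifferentiated germ cell markers were mixed, with 3 of 10 higher and 5 lower in tst RNAi, and 3 higher and 3 lower in pelo mutants. Of 10 testis markers measured, 4 reached 1 TPM in 2 or more libraries and were tested, and 1 rose and 1 fell in each mutant. By the same filter 3 of 6 fat body and 3 of 7 gut and oviduct markers were tested. Fat body markers rose for 1 of 3 in tst RNAi and 3 of 3 in pelo mutants, and gut and oviduct markers for 1 of 3 and 0 of 3. The part of these markers' cells in the rise of the 6 genes was not tested.

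Compared directly, the mutant inputs differed in the level of 5 of the 6 genes, where 21.2% of the 8572 genes differed in either direction. Against pelo mutant inputs, tst RNAi inputs had more CG14346 (log2 difference 2.28, SE 0.33, adjusted p = 0.00418), more CG31300 (1.81, SE 0.32, adjusted p = 0.00922) and more Phk-3 (1.10, SE 0.28, adjusted p = 0.032). They had less CG12355 (-0.91, SE 0.23, adjusted p = 0.0329) and less CG4415 (-0.98, SE 0.26, adjusted p = 0.0335). CG7443 differed by 1.43 with a 95% interval from 0.41 to 2.45 (adjusted p = 0.0551). This comparison was added after the values were seen. In the same comparison tst RNAi had lower levels of 9 of 11 late egg chamber and 5 of 8 maternal axis markers and higher levels of 8 of 13 muscle sheath, 5 of 7 early follicle cell and 4 of 12 hemocyte and basement membrane markers, whose part in these differences was not tested. With any 1 of the 4 libraries left out, CG14346 kept its call at each turn, CG31300 lost it without pelo mutant input 1 (1.48) and without tst RNAi input 2 (1.58), and CG12355, Phk-3 and CG4415 lost it at each turn.

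The tst mutant and young wild type, neither of which entered the choice, differed for 3 of the 6 genes. The tst mutant had more CG31300 (log2 difference 1.80, SE 0.29, adjusted p = 0.00315) and more CG14346 (2.50, SE 0.59, adjusted p = 0.0352), so 2 of the 6 were higher where 2.74% of 8864 genes were. It had less CG7443 (-1.58, SE 0.33, adjusted p = 0.0179), so 1 of the 6 was lower where 1.44% of genes were. CG12355 (-0.77, 95% interval -1.81 to 0.26), Phk-3 (0.58, -0.40 to 1.57) and CG4415 (-0.15, -2.53 to 2.23) did not pass. With each library shifted to an equal median, 0 of the 6 genes were called. CG31300 also missed the threshold with only the compared groups in the fit (adjusted p = 0.0811), and CG14346 lost its call when any 1 of the 4 libraries was left out. CG7443 lost its call in all such turns but 1, the turn without tst mutant replicate 1. The summed muscle sheath markers were 5571 and 7257 TPM in the young controls, against 2653 and 1515 TPM for tst mutants and 494 and 328 TPM for adult controls. Late egg chamber markers ran the other way, at 247 and 343 TPM, 15178 and 17217 TPM, and 84818 and 67230 TPM in the same order. Over these 3 groups CG7443 and CG12355 both had the same order as the muscle sheath sum. Hemocyte and basement membrane markers had it too, at 2011 and 2307 TPM in young wild type, 1724 and 866 TPM in tst mutants and 361 and 363 TPM in adult wild type. The part of these cells in the levels was not tested.

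Beside adult wild type, whose libraries also served in the choice, CG7443, CG12355 and Phk-3 stood higher in newly eclosed ovaries, and the other 3 genes differed by less than 1 on the log2(TPM + 1) scale. The differences were 3.72 for CG7443 (SE 0.33), 2.49 for CG12355 (SE 0.47) and 1.78 for Phk-3 (SE 0.45). They were -0.32 for CG31300 (SE 0.29), 0.20 for CG14346 (SE 0.59) and 0.90 for CG4415 (SE 1.09). Young wild type differed from adult wild type in age and in the marker sums given above, and the part of either in these levels was not tested.

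Polysome libraries hold RNA recovered from fractions with several ribosomes, and their ratio to the input describes how much of a transcript sat there. Of the 6 genes, 1 differed between polysome and input in controls, where 41.7% of 8572 genes did in either direction. That gene was higher in polysomes, where 3.25% of all genes were higher and 38.4% lower. The median difference was -0.13 for the 6 genes and -0.55 over all genes. Phk-3 was 7.53 and 6.53 TPM in control polysomes against 4.58 and 2.64 TPM in inputs, a difference of 0.83 (SE 0.28, adjusted p = 0.0401). This call was lost without the low-value filter (adjusted p = 0.0584) and without control preparation 2. In pelo mutants 0 of the 6 genes passed, where 5.9% of genes did, and in tst RNAi 0 passed, where 0.035% did; at an unadjusted p under 0.05 by limma the counts were 1 and 0 of the 6, where 28.4% and 11.5% of genes were under it. CG7443 in pelo mutants came nearest, with 1821 and 1359 TPM in polysomes against 658 and 864 TPM in inputs (difference 1.06, SE 0.31, adjusted p = 0.0678).

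Polysome levels of the 6 genes lay above the controls in both mutants, which was not tested, and the share of all genes that did so was not counted. The median level of all genes was 23.1 and 15.6 TPM in control polysomes. It was 28.0 and 25.0 TPM in tst RNAi polysomes and 23.1 and 21.4 TPM in pelo mutant polysomes. CG4415 had 0.35 and 2.30 TPM in control polysomes, 101 and 120 TPM in tst RNAi polysomes and 177 and 185 TPM in pelo mutant polysomes. CG7443 had 157 and 125 TPM in control polysomes and 3121 and 2860 TPM in tst RNAi polysomes. CG31300 had 0.095 and 0.23 TPM, 13.7 and 9.32 TPM, and 4.32 and 3.80 TPM in control, tst RNAi and pelo mutant polysomes. In the same order CG14346 had 0.37 TPM and a listed 0, 11.9 and 12.9 TPM, and 2.83 and 1.99 TPM. CG12355 had 1.66 and 1.17 TPM, 17.5 and 21.6 TPM, and 24.1 and 18.7 TPM, so the mutants overlapped in polysomes where their inputs had not. Phk-3 reached 69.8 and 71.0 TPM in tst RNAi and 27.9 and 22.5 TPM in pelo mutants.

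The change of the polysome-to-input ratio from control was tested as an interaction. In tst RNAi 0 of the 6 genes passed by limma, where 23% of genes did, and in pelo mutants 0 passed, where 0% of genes did; at an unadjusted p under 0.05 the counts were 0 and 1 of the 6, where 41% and 13.3% of genes were under it. The estimates in tst RNAi ran from -0.30 for Phk-3 (95% interval -1.20 to 0.59) to 0.59 for CG14346 (-0.28 to 1.47). In pelo mutants they ran from -0.66 for Phk-3 (-1.55 to 0.24) to 0.89 for CG14346 (0.013 to 1.77). For CG4415, with the largest change in level, they were 0.32 in tst RNAi (-0.45 to 1.09) and 0.05 in pelo mutants (-0.72 to 0.82), so neither interval reached beyond 1.09 in either direction. The median over all genes was 0.70 in tst RNAi, and the sign of 4 of the 6 estimates there turned when libraries were set to equal medians.

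**Figure D4:**
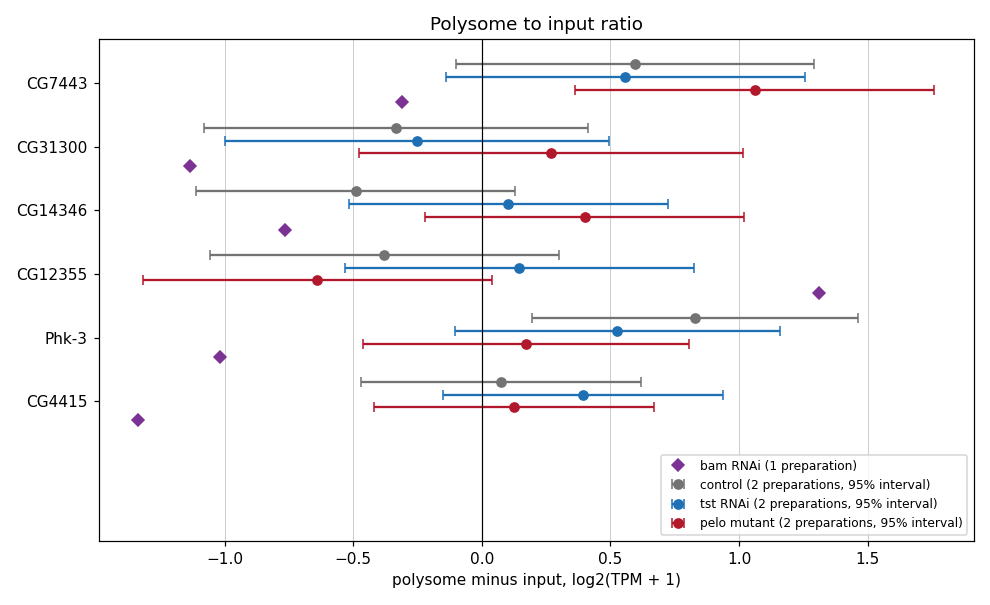
Polysome minus input on the log2(TPM + 1) scale for each gene in control, tst RNAi and pelo mutant preparations, with 95% intervals from limma over 2 preparations a group, and in the single bam RNAi preparation as diamonds without an error. The intervals of control, tst RNAi and pelo mutant overlap for each gene, and the bam RNAi value lies below 0 for 5 of the 6 genes, in a preparation whose polysome library held 480 TPM of osk against 2.46 TPM in its input, a difference whose part in these values was not tested.

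In bam-deficient ovaries 5 of the 6 genes were also high. These are single libraries with no replicate check, and called here means at least 2 on the log2(TPM + 1) scale above the higher control input. In the bam RNAi input 5 of the 6 genes were past that mark, where 9.51% of 8826 genes were, and in the bam mutant 4 of the 6, where 12.9% were. At a mark of 1 the same 5 and 4 genes were past it, where 19.5% and 22.6% of genes were. The bam mutant values come from a separately normalized table, so levels set across the tables rest on TPM alone. Control inputs had 65.1 and 40.1 TPM of bam itself, against 3.10 TPM with bam RNAi (input) and 5.61 TPM for the mutant. The bam RNAi polysome library stood apart from its own input: bam was 18.9 TPM there, within the range of control polysomes (41.2 and 11.8 TPM), and osk, a transcript of the maturing oocyte, was 480 TPM against 2.46 TPM in the input and 4.64 TPM in the mutant (457 and 112 TPM in control polysomes). Its maternal axis markers summed to 1812 TPM against 409 TPM in the input, and its late egg chamber markers to 31455 TPM against 7453 TPM. Its levels are therefore listed with that difference, and no count rests on them.

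CG4415 was 93.5 TPM in the bam RNAi input, 36.4 TPM in its polysomes and 128 TPM in the bam mutant. CG7443 was 2961, 2387 and 835 TPM in the same order, Phk-3 87.4, 42.7 and 45.3 TPM, and CG14346 34.3, 19.8 and 25.8 TPM. CG12355 was 0.77, 3.38 and 2.19 TPM, below or between the control inputs at 1.90 and 2.37 TPM except in polysomes. CG31300 was 7.24 TPM in the bam RNAi input but 0.78 TPM in the mutant, close to the control inputs. CG31300 lies 38.5 kb from bam on 3R, and a part of the bamΔ86 chromosome in that level was not tested. Its neighbours CG11892 and CG10514 were 107 and 17.3 TPM in the bam RNAi input and 176 and 35.8 TPM in the mutant. Its other neighbours, CG31104 and CG13658, were near 0 in both, at 0.058 and 0.12 TPM in that input and 0.35 and 0.078 TPM in the mutant. The summed muscle sheath markers were at 8875 TPM with bam RNAi (input), 3587 TPM in its polysomes and 7922 TPM in the mutant. Hemocyte and basement membrane markers were at 2185 TPM in that input and 2218 TPM in the mutant, against 298 and 279 TPM in control inputs. Fat body markers were at 19.2 TPM and 2308 TPM, against 1.03 and 16.6 TPM, and gut and oviduct markers at 45.4 TPM and 279 TPM, against 1.71 and 1.73 TPM. Late egg chamber markers were at 43144 TPM in the mutant, against 42944 and 70122 TPM. The part of these other cells in the levels of the 6 genes was not tested.

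The relatives of the 3 genes with a known family moved in different ways, and these families were picked after the data were seen. A search by Dro5 names found 6 other genes of the kinase-like cluster, which need not be all of it. Among them, CG13659 was 0.24 and 1.16 TPM in control inputs, 5.32 and 8.70 TPM in tst RNAi and 15.996 and 25.5 TPM in pelo mutants. Of the 5 genes found that could be tested in the inputs, 4 rose in tst RNAi and 5 in pelo mutants. A gene could pass the low-value filter through mutant libraries alone, as CG13658 did (0.46 and 0.17 TPM in control inputs). These counts are therefore partly set by the filter and carry no weight. Over all 8572 genes, 21.7% and 14.4% rose. CG13659 rose by 2.26 (SE 0.38) and 3.70 (SE 0.38) and CG31370 by 2.73 (SE 0.30) and 2.85 (SE 0.30). Between the mutant inputs CG31300 was higher in tst RNAi, whereas CG11893 (-2.06, SE 0.36, adjusted p = 0.00933), CG13659 (-1.44, SE 0.38, adjusted p = 0.0344) and CG31436 (-0.80, SE 0.23, adjusted p = 0.0469) were lower. Against young wild type the tst mutant had higher levels of 4 of these 6 relatives, where 2.74% of 8864 genes were higher. In total mRNA, CG31104 reached 1 TPM only in the tst mutant, so it entered this test through that group. Among the 4 was CG13658, at 10.32 and 10.26 TPM against 0.099 TPM and a listed 0.

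EbpIII, the other chemosensory-family gene measured here, rose with Phk-3: it was 1.202 and 2.60 TPM in control inputs, 19.2 and 17.6 TPM in tst RNAi (2.79, SE 0.37, adjusted p = 0.00067) and 24.4 and 12.3 TPM in pelo mutants (2.71, SE 0.37, adjusted p = 0.00283). In young wild type EbpIII was 58.8 and 37.1 TPM, above every mutant total mRNA library. The general NAC subunits behaved otherwise than CG4415. Nacalpha was 1641 and 1629.9 TPM in control inputs and did not pass in tst RNAi (0.39, 95% interval 0.017 to 0.75, adjusted p = 0.0734) or pelo mutants (0.28, -0.09 to 0.65, adjusted p = 0.201). The beta subunit gene bic did not pass either (0.23, adjusted p = 0.292, and -0.12, adjusted p = 0.612), nor did CG11835, another beta-type gene of the family, at 0.095 and 0.18 TPM in control inputs. With bam RNAi, however, CG11835 reached 5.85 TPM in input and 2.88 TPM in polysomes, and bam mutants had 12.1 TPM, in libraries where CG4415 was high as well. CG4415 in pelo mutant inputs thus remained well below Nacalpha, which had 2022 and 1945 TPM there.

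**Figure D5:**
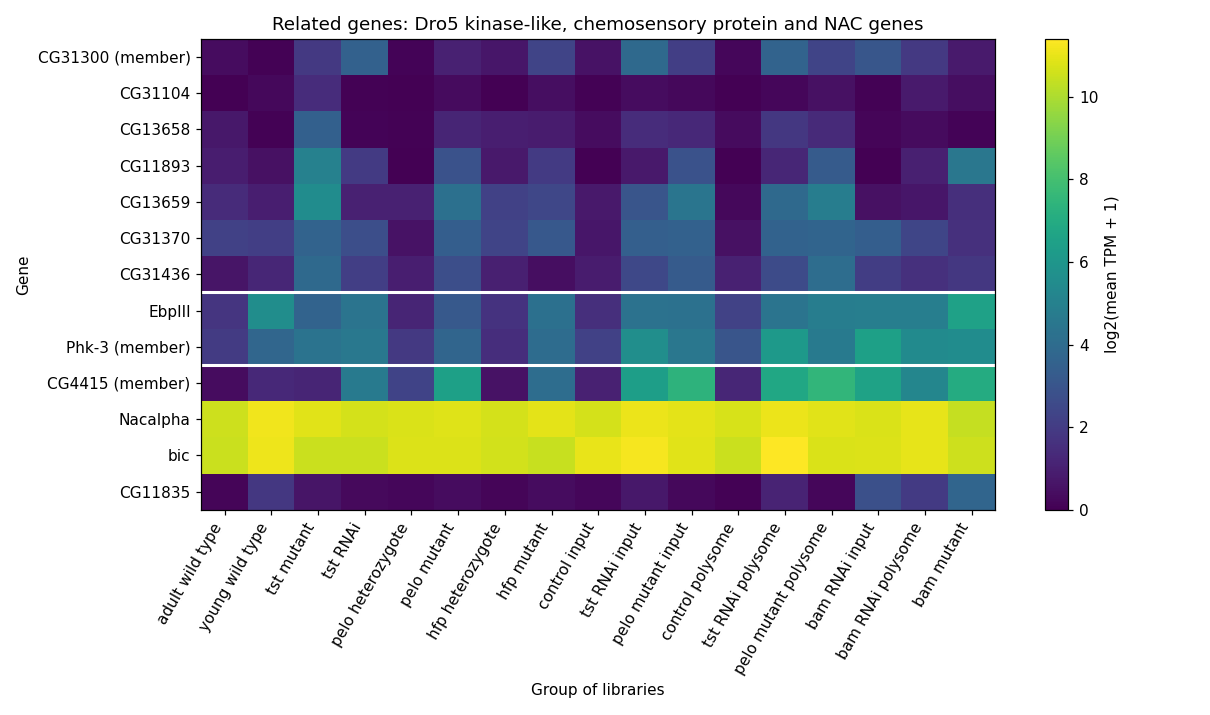
Mean level of the genes and their family relatives by group as log2(mean TPM + 1) in colour, with white lines between the Dro5 kinase-like, chemosensory and NAC families. Nacalpha and bic are near the top of the scale in every group, and CG4415 changes from 1.07 TPM in control inputs to 166 TPM in pelo mutant inputs.

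Genes next to the 6 on their chromosomes, 2 on either side, were measured as well. Of 20 neighbours tested, 8 rose and 1 fell in tst RNAi inputs, and 10 rose and 1 fell in pelo mutant inputs. Here too a gene could pass the low-value filter through mutant libraries alone. Over all genes 21.7% rose and 31.7% fell in tst RNAi inputs, and 14.4% rose and 16.4% fell in pelo mutant inputs. Poxm, which overlaps CG7443 and encodes a transcription factor of the paired-box class, rose by 2.79 (SE 0.31) and 2.51 (SE 0.31). CG5397, 2 genes from CG14346, rose by 3.43 (SE 0.30) and 2.04 (SE 0.30), and CG2736, beside Phk-3, by 3.08 (SE 0.25) and 2.84 (SE 0.25). NLaz, between CG5397 and CG14346, was 24.4 and 18.6 TPM in control inputs. It was 21.5 and 20.6 TPM in tst RNAi inputs and 16.5 and 8.65 TPM in pelo mutant inputs. The neighbours of CG4415 that were tested, S and ast, did not rise: S, which encodes the Star protein of the EGF receptor pathway, fell by 1.10 and 0.71.

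Over the 14 groups of 2 libraries, the mean levels of the 6 genes resembled each other unequally. The Pearson correlation of group means on the log2(TPM + 1) scale was highest for CG7443 and Phk-3 (0.95) and lowest for CG14346 and CG12355 (0.38). Inputs and polysomes share preparations, and the groups differ in their marker sums, so these are descriptions without a test. Among 7847 genes reaching 5 TPM in a group mean, the closest to CG7443 was CG1092 (0.97), to CG31300 CG5687 (0.97), to CG14346 blanks (0.96), to CG12355 CG34194 (0.91), to Phk-3 CG33494 (0.97) and to CG4415 RpL22-like (0.94). RpL22-like, a paralogue of a ribosomal protein gene, was at a listed 0 and 0.19 TPM in control inputs, 18.1 and 14.9 TPM in tst RNAi, 28.9 and 31.3 TPM in pelo mutants, and 81.0 and 117 TPM in the bam RNAi input and bam mutant. blanks, which encodes a double-stranded RNA-binding protein needed in the male germ line, had 104 and 4.56 TPM in the hfp mutant, the same library split as CG14346.

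The order of the levels over the 14 groups of 2 libraries differed from gene to gene. The highest group mean was in tst RNAi polysomes for CG7443 and Phk-3 (2990 and 70.4 TPM), in tst RNAi inputs for CG31300 (13.9 TPM), in the hfp mutant for CG14346 (36.2 TPM), in the pelo mutant for CG12355 (35.6 TPM) and in pelo mutant polysomes for CG4415 (181 TPM). For CG31300, CG14346 and CG12355 the top group overlapped the next, and for CG14346 the top rests on 1 hfp mutant library (61.4 TPM), the other, at 10.97 TPM, being below both tst RNAi libraries. Of the 13 neighbouring pairs of groups in each order, the libraries overlapped in 7 for CG7443 and in 8 for Phk-3 and for CG4415. They overlapped in 9 for CG31300, and in 10 for CG14346 and for CG12355. The groups were sorted by these same means, so overlap of neighbours is partly set by the sorting and does not show that they are equal. The share of overlaps over all genes was not counted. For CG12355 the widest step lay between the tst mutant and adult wild type (13.3 and 3.36 TPM), which divided the groups into a high set and a low set that held tst RNAi total mRNA.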

How the data were processed

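Poly(A) RNA of ovaries was sequenced as 31 libraries. Per the submitters' processing notes, reads were processed with HISAT2 2.0.5, featureCounts 1.5.1 and dm6; no source used here gives each tool's role, the filters or read counts. The authors deposited log2 values of TPM plus 0.5, whose TPM sum to 998656.5 to 1000018.6 per library, found from the values; the bam mutant came in a table of its own, with 9246 genes shared. TPM were recovered and tested as log2(TPM + 1), so fold changes of low genes are understated. Genes needed 1 TPM in 2 or more libraries (8864 genes in 16 total mRNA libraries, 8572 in 12 input and polysome libraries). limma 3.58.1 in R 4.3.3, with a mean-variance trend, was fitted over all groups of a set, with Benjamini-Hochberg adjustment over all genes and a threshold of 0.05. Inputs used 6 libraries; polysome ratios used 12 with the 6 preparations as a block, since each input is labelled as the total mRNA of a polysome sample. Scripts were tested on simulated data. Intervals are 95% limma intervals.

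The 6 genes, the marker lists and the families were chosen with earlier results of these data known. Named genes were the 6, the targeted genes, the 3 genes of most similar group means, 2 neighbours on either side in the table and family members; other family members were not analysed here. The planned search for relatives by protein was not run. Names and positions came from RefSeq (Release 6), which matched 9240 of 9251 genes. Replicate numbers paired total mRNA libraries in the 4 groups whose replicates differ in strand label (correlation of deviations 0.613 to 0.762 over 6 pairs of groups) and between mutant and heterozygote of pelo (0.653) and hfp (0.717), but the labels name no shared source, and inputs gave -0.227 to -0.00661. Alternatives were another pseudocount, no filter, equal library medians, fewer or more groups in the fit, the replicate block and each replicate left out.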

Additional observations from a re-analysis of the deposited data

Results flagged for a closer look

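For 5 of the 6 genes the direct comparison of tst RNAi inputs with pelo mutant inputs found a difference between the groups' effects against the shared control inputs. Over all 8572 genes, 21.2% differed in either direction. The log2 differences, tst RNAi minus pelo mutant, were 2.28 for CG14346, 1.81 for CG31300 and 1.10 for Phk-3, which were higher in tst RNAi, and -0.91 for CG12355 and -0.98 for CG4415, which were higher in pelo mutants. Only 2 libraries stood in each group, and the comparison was chosen after the values were seen. CG12355, Phk-3 and CG4415 lost the call when any 1 of the 4 libraries was left out, and CG31300 in 2 of the 4 turns. In the same comparison 9 of 11 late egg chamber markers were lower and 8 of 13 muscle sheath markers higher in tst RNAi, and their part was not tested. In total mRNA, whose controls differed between the mutants, CG4415 was 39.9 and 9.54 TPM in tst RNAi and 65.7 and 113 TPM in the pelo mutant, and CG14346 was 13.7 and 11.4 TPM against 2.03 and 1.499 TPM.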

How the results depend on the processing

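The rise of the 6 genes in tst RNAi inputs kept its call under each alternative run, and that of CG7443, CG12355, Phk-3 and CG4415 in pelo mutant inputs did too. With the replicate block, 4082 and 1794 genes were called in these comparisons and 6 and 5 of the 6 genes; the numbers pair no inputs by their labels. In the tst mutant against young wild type the block called 441 genes and 3 of the 6, and in the total mRNA comparisons it changed no call of the 6, while 152, 52 and 90 genes were called as higher in the tst RNAi, pelo and hfp comparisons. The block left 1135 genes and 3 of the 6 between tst RNAi and pelo mutant inputs. Leaving out 1 library gave 2946 to 4769 genes for tst RNAi inputs, 902 to 3689 for pelo mutant inputs, 400 to 724 between mutant inputs (1 to 2 of the 6) and 165 to 295 for the tst mutant against young wild type (1 to 2 of the 6). The fit over 12 libraries called 1044 genes in pelo mutant inputs, and 824 genes and 3 of the 6 between mutant inputs; without a filter 2 of the 6 were called there, and with only those groups 2722 genes. For the tst mutant, equal medians called 246 genes and 0 of the 6, and only the compared groups 220 genes; CG4415 turned to 0.26 without tst mutant replicate 1 and 0.23 without young wild type replicate 2 (range -0.56 to 0.26).

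For control polysomes against inputs, no filter called 0 of the 6, equal medians 1891 genes and 3 of the 6, and leaving out a preparation 3031 to 3600 genes and 0 to 2 of the 6. Equal medians moved the median of all genes by 0.78 and turned CG31300 (0.45), CG14346 (0.29) and CG12355 (0.40); CG7443 ranged from -0.032 to 1.22 and CG4415 from -0.20 to 0.36 over preparations. In pelo mutants 0 genes were called without a filter or with no replicate block, 1 with equal medians, and 1 to 191 without a preparation, with CG31300 from -0.14 to 0.67 and Phk-3 from -0.14 to 0.48. In tst RNAi 0 were called without a filter or with no replicate block and 0 to 2 without a preparation, with CG31300 from -0.73 to 0.23 and CG14346 from -0.051 to 0.26.

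For the ratio's change in tst RNAi, 1252 genes were called without a filter, 54 with equal medians, 1107 with no replicate block and 0 to 3156 without a preparation. Equal medians turned CG31300 (-0.79), CG14346 (-0.28), CG12355 (-0.35) and CG4415 (-0.56), and leaving out a preparation gave -0.66 to 0.59 for CG7443 and -0.40 to 0.56 for CG31300. In pelo mutants 0 to 1090 genes were called without a preparation; CG4415 was -0.40 with equal medians and -0.23 to 0.33 without a preparation, CG7443 -0.16 to 1.09 and CG12355 -0.63 to 0.11. The cause of these changes was not tested. At a mark of 1 in place of 2 on the log2 scale, the counts in the bam libraries were still 5 and 4 of the 6. Read depth is unknown, so no counting error can be given for levels near 0.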
